A study of Mus musculus with 18 samples.

Results

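The keratin genes Krt7, Krt8, Krt18, Krt19 and Krt17 were followed through the differentiation of mouse embryonic stem cells with and without 2 RNA-binding proteins. These 5 genes were taken by Ensembl ID from the 51826 features listed for each library, of which 33167 had any count. The IDs are ENSMUSG00000023039 (Krt7), ENSMUSG00000049382 (Krt8), ENSMUSG00000023043 (Krt18), ENSMUSG00000020911 (Krt19) and ENSMUSG00000035557 (Krt17). The genes were chosen by name with fold changes of these same counts known, among them the loss of Krt17 counts over time in Sam68 KO cells, and no threshold was set. Changes between day 10 and day 0 are therefore given as a description with no p-value, and none of the calls below is independent evidence about keratins as a family. All 5 passed the filter on low counts, which kept 13701 features, although Krt17 did so through its day 0 libraries.

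Ribosome footprints, the pieces of mRNA left after nuclease digestion because a ribosome covered them, were counted per gene in lines of the E14 background, a mouse embryonic stem cell line. The lines were Sam68 KO and Quaking KO, each lacking 1 RNA-binding protein of the STAR family, and the wild type of that background (WT). Each was sampled as embryoid bodies, aggregates in which early embryonic cell types form, after 10 days, and as stem cells at day 0, all after cycloheximide treatment. This gave 6 groups of 3 libraries, 18 in all, described by the submitters as biological triplicates. The sources used here do not say whether a KO line is 1 clone. The files give Ensembl IDs without symbols, so the knocked-out genes and cell type markers were not examined, and genotypes and cell type rest on the labels.

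Total counts ranged from 2196924 to 7885195 in Sam68 KO, 988210 to 3281358 in Quaking KO and 1175919 to 6513343 in WT libraries at day 10. At day 0 they ranged from 4629369 to 8062158 in Sam68 KO, 1373377 to 3019843 in Quaking KO and 5413775 to 10646768 in WT libraries. Levels are CPM, each gene's counts relative to the size of its library after TMM scaling, which adjusts for libraries whose counts are taken up by a few features, and a floor of 3 counts was worth between 0.233 and 7.05 CPM. The library names carry a MIX number, called a pool here, whose nature is not given in the sources used here. MIX_3 held the day 10 libraries of both KO lines, MIX_2 those of WT at day 10 with Sam68 KO at day 0, and MIX_1 the remaining day 0 libraries. Pool and group thus cannot be told apart, except between the KO lines at day 10 (MIX_3) and between Quaking KO and WT at day 0 (MIX_1). In 3 day 10 libraries (Sam68 KO replicates 2 and 3, WT replicate 3) the 10 largest features took over 40% of the counts.

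Keratins are the intermediate filament proteins of epithelial cells. A type II keratin, such as those encoded by Krt7 and Krt8, pairs with a type I keratin, such as those encoded by Krt18, Krt19 and Krt17, and the filament is built from these pairs. KRT8 and KRT18 are the main pair of simple, single-layered epithelia and the earliest keratins of the mouse embryo, where they mark trophectoderm and endoderm. KRT19 accompanies them in many simple epithelia, KRT7 is found in ducts, mesothelium and trophoblast, and KRT17 is best known from hair follicles and wounded or stressed epidermis.

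In RefSeq's annotation of GRCm38.p6, the build family named for these counts, the type II genes and Krt18 lie on chromosome 15: Krt7 at chr15:101412403-101427806, Krt8 at chr15:101996711-102004342 and Krt18 at chr15:102028216-102032026. Krt8 and Krt18 are separated by 23873 bases. The other type I genes lie on chromosome 11, Krt19 at chr11:100140810-100145926 and Krt17 at chr11:100256215-100261029, with Krt14 and Krt16 among the 6 genes between them. No other annotated gene overlapped any of the 5. A pseudogene, Krt8-ps, is annotated at chr7:23357094-23358779, and how reads shared with it, or among related keratins such as Krt17, Krt14 and Krt16, were assigned is not given in the sources used here, so counts of Krt8 and Krt17 carry that uncertainty.

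The 250 bases before the annotated start of Krt8 and Krt18, the pair whose counts moved together, and of Krt7, whose counts parted from theirs, are shown 5′ to 3′ on the strand of the gene (RefSeq, GRCm38.p6). Capitals mark matches on either strand to GGGCGG, the GC box bound by Sp family factors, or to GCCNNNGGC, the palindrome bound by AP-2 factors. Overlapping matches are merged.
Krt8 (chr15:102004343-102004592, minus strand): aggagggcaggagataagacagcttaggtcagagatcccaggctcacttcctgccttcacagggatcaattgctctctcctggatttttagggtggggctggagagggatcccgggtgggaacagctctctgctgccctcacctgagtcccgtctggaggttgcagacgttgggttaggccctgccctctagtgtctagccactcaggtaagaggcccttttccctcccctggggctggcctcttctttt
Krt18 (chr15:102027966-102028215, plus strand): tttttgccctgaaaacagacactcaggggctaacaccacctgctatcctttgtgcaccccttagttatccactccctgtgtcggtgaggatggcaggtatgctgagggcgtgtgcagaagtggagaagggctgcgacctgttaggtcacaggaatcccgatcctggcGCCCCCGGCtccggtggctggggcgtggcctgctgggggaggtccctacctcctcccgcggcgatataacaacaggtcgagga
Krt7 (chr15:101412153-101412402, plus strand): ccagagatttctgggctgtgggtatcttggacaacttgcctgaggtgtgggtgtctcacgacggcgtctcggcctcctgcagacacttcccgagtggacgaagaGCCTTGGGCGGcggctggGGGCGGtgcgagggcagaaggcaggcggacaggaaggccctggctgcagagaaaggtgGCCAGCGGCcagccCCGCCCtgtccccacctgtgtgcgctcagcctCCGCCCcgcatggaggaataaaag
Krt7 held 4 matches to GGGCGG and 2 to GCCNNNGGC, Krt18 held 1 to GCCNNNGGC, and Krt8 held none. Of 32851 such windows in the RefSeq table, 32.7% held GGGCGG and 13.7% held GCCNNNGGC. The TATA motif TATAAA (12.4% of windows) and the AP-1 motif TGANTCA (6.75%) matched in none of the 3. A match is a run of letters and not a shown binding site. No window was given for Krt19 or Krt17.

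Between day 0 and day 10 the keratin counts changed over. Krt8, Krt18, Krt19 and Krt7 were higher at day 10 in all 3 lines, with no overlap between the days within a line. How many of all features tested lay apart in this way, between days or between lines, was not counted. Krt17 held 0 to 4 counts per library at day 10, against 28.1 to 42.3 CPM at day 0. In each line all 5 genes were past an adjusted p of 0.05 in edgeR's quasi-likelihood test, 4 higher and 1 lower, where 65.3% of all features tested passed in Sam68 KO (34.9% higher and 30.5% lower), 64.1% in Quaking KO (34.7% higher and 29.4% lower) and 65% in WT (34.9% higher and 30.1% lower). Since the genes were chosen with this change known, nothing is read from these counts. The median log2 fold change of the 5 genes was 3.32 in Sam68 KO, 3.90 in Quaking KO and 2.31 in WT, beside 0.11, 0.11 and 0.10 over all features. Counts of tissue-like aggregates do not tell apart more cells of a type from more footprints per cell, and footprints do not separate mRNA amount from its translation.

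**Figure D1:**
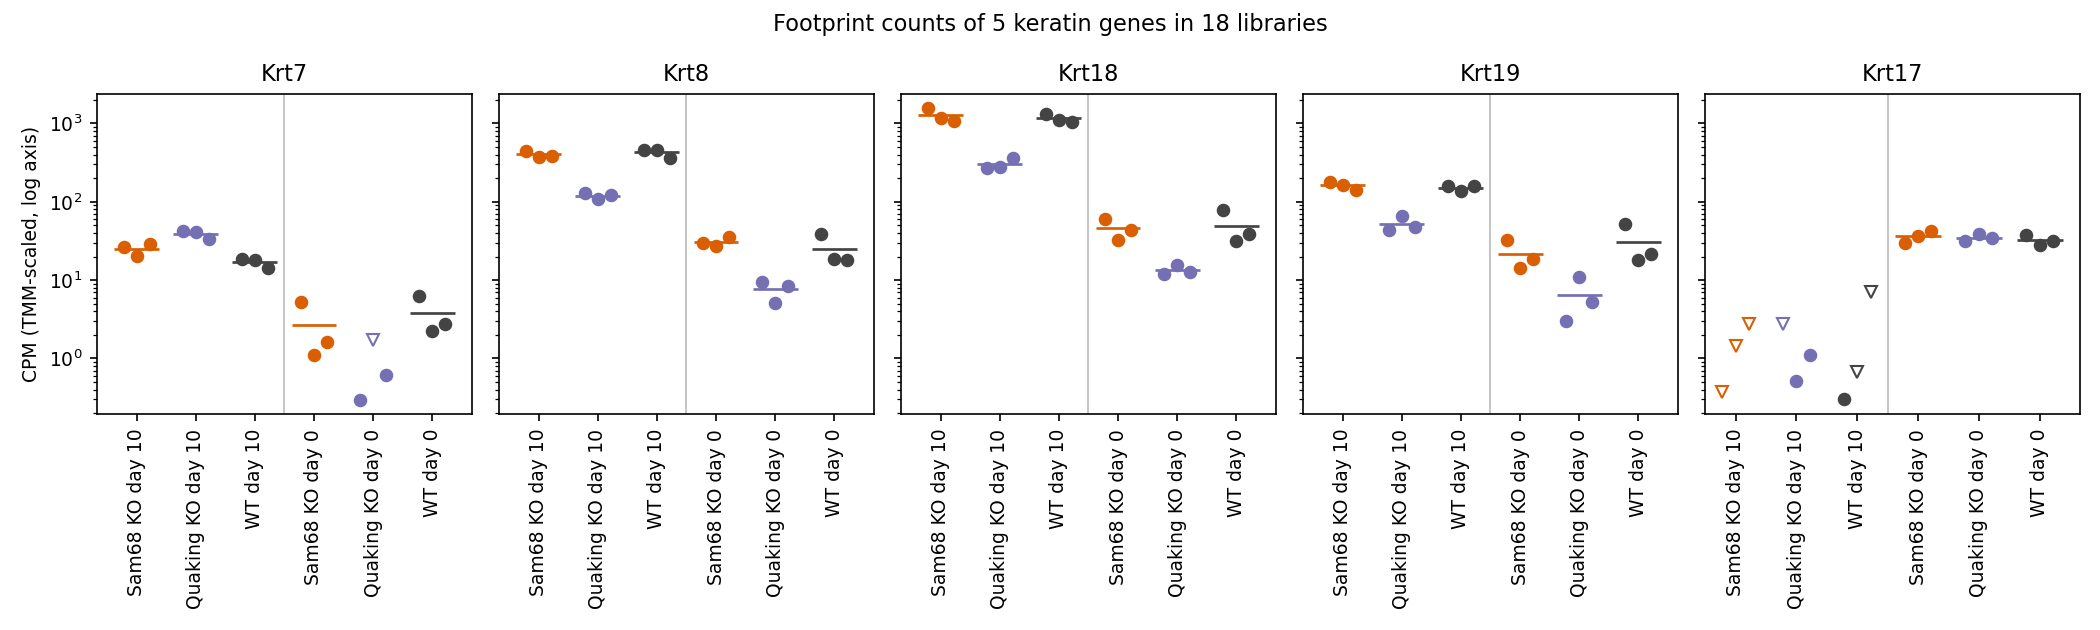
Each point is 1 library, with TMM-scaled CPM on a log axis, for the 6 groups along each horizontal axis (Sam68 KO orange, Quaking KO purple, WT grey; day 10 left of the line, day 0 right). Bars are means over 3 libraries, drawn where all 3 had counts, and open triangles mark libraries with no count, set at the level of 3 counts. Krt8, Krt18 and Krt19 in Quaking KO lie below both other lines on each day, Krt7 in Quaking KO lies above them at day 10, and Krt17 is seen at a like level in all day 0 libraries.

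Krt8, the type II partner of the simple epithelial pair, had 447, 375 and 385 CPM in Sam68 KO, 130, 109 and 121 CPM in Quaking KO and 464, 460 and 364 CPM in WT libraries at day 10. At day 0 it had 30.1, 27.3 and 35.01 CPM in Sam68 KO, 9.55, 5.17 and 8.43 CPM in Quaking KO and 39.1, 18.6 and 18.2 CPM in WT libraries. The 3 Quaking KO libraries were the lowest of their day at both times, and Sam68 KO and WT overlapped. The log2 fold change of day 10 over day 0 was 3.71 (SE 0.24) in Sam68 KO, 3.90 (SE 0.28) in Quaking KO and 4.10 (SE 0.25) in WT. Ordered by mean level, Sam68 KO and WT at day 10 stood highest (402 ± 38.7 CPM in Sam68 KO and 429 ± 56.4 CPM in WT; SD, n = 3 here and below) and did not differ beyond their spread. Quaking KO at day 10 (120 ± 10.4 CPM) came next, then Sam68 KO and WT at day 0 (30.8 ± 3.90 and 25.3 ± 11.9 CPM), again within their spread, and Quaking KO at day 0 (7.71 ± 2.27 CPM).

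Krt18, the type I partner of Krt8, followed the same order. It had 1568, 1165 and 1075 CPM in Sam68 KO, 270, 279 and 366 CPM in Quaking KO and 1300, 1120 and 1050 CPM in WT libraries at day 10. At day 0 there were 60.8, 32.6 and 43.4 CPM in Sam68 KO, 11.9, 15.5 and 12.8 CPM in Quaking KO and 78.0, 31.2 and 39.3 CPM in WT libraries. Quaking KO again held the 3 lowest libraries of each day. The log2 fold change over time was 4.80 (SE 0.34) in Sam68 KO, 4.52 (SE 0.36) in Quaking KO and 4.55 (SE 0.34) in WT. These were the highest values among the 4 rising keratins in Sam68 KO and WT, and in Quaking KO only Krt7 was higher.

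Krt19 encodes a type I keratin of simple epithelia that can take the place of KRT18. Its day 10 libraries had 181, 163 and 143 CPM in Sam68 KO, 43.6, 66.1 and 47.9 CPM in Quaking KO and 157, 136 and 160 CPM in WT. Its day 0 libraries had 32.2, 14.2 and 18.5 CPM in Sam68 KO, 2.98, 10.9 and 5.31 CPM in Quaking KO and 51.7, 17.9 and 21.6 CPM in WT. The groups of Quaking KO libraries lay below those of the other lines on both days without overlap. The log2 fold change over time was 2.93 (SE 0.42) in Sam68 KO, 3.20 (SE 0.53) in Quaking KO and 2.31 (SE 0.41) in WT.

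Krt7, the other type II gene, did not follow this order. At day 10 it had 26.2, 20.1 and 28.7 CPM in Sam68 KO, 41.7, 41.3 and 33.6 CPM in Quaking KO and 18.7, 17.9 and 14.1 CPM in WT libraries. At day 0 it had 5.20, 1.10 and 1.63 CPM in Sam68 KO and 6.25, 2.24 and 2.80 CPM in WT libraries, whereas the Quaking KO libraries held 1, 0 and 2 counts. Quaking KO was thus the highest line at day 10, with no overlap with either other line. At day 0 it was the lowest, but each of its libraries was under the floor of 3 counts. That floor was worth 1.72 CPM in Quaking KO replicate 2, above Sam68 KO replicates 2 and 3 and below all WT libraries. At day 0 a separation from Sam68 KO is therefore not resolved. From summed counts, Krt7 was 10.9 times higher at day 10 in Sam68 KO (95% counting interval 8.11 to 15.0), 106 times higher in Quaking KO (35.8 to 514) and 5.18 times higher in WT (4.05 to 6.66). These intervals cover counting error alone and leave out the spread between libraries, such as 1.10 to 5.20 CPM in Sam68 KO at day 0. PCR copies were not told apart by molecular identifiers, so the intervals may be too narrow even for counting.

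Krt17, a type I keratin, was the one gene of the 5 that fell over time. At day 10 no Sam68 KO library held a count, Quaking KO libraries held 0, 2 and 4 counts and WT libraries 2, 0 and 0 counts. At day 0 it had 30.1, 36.1 and 42.3 CPM in Sam68 KO, 31.3, 39.0 and 34.3 CPM in Quaking KO and 37.2, 28.1 and 32.0 CPM in WT libraries. The 9 day 0 libraries overlapped between all lines. Set against the floor of 3 counts per library, Krt17 was at least 23.6-fold lower at day 10 in Sam68 KO. From summed counts, day 0 exceeded day 10 by a ratio of 48.4 in Quaking KO (counting interval 21.97 to 133) and of 187 in WT (51.7 to 1549).

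**Figure D2:**
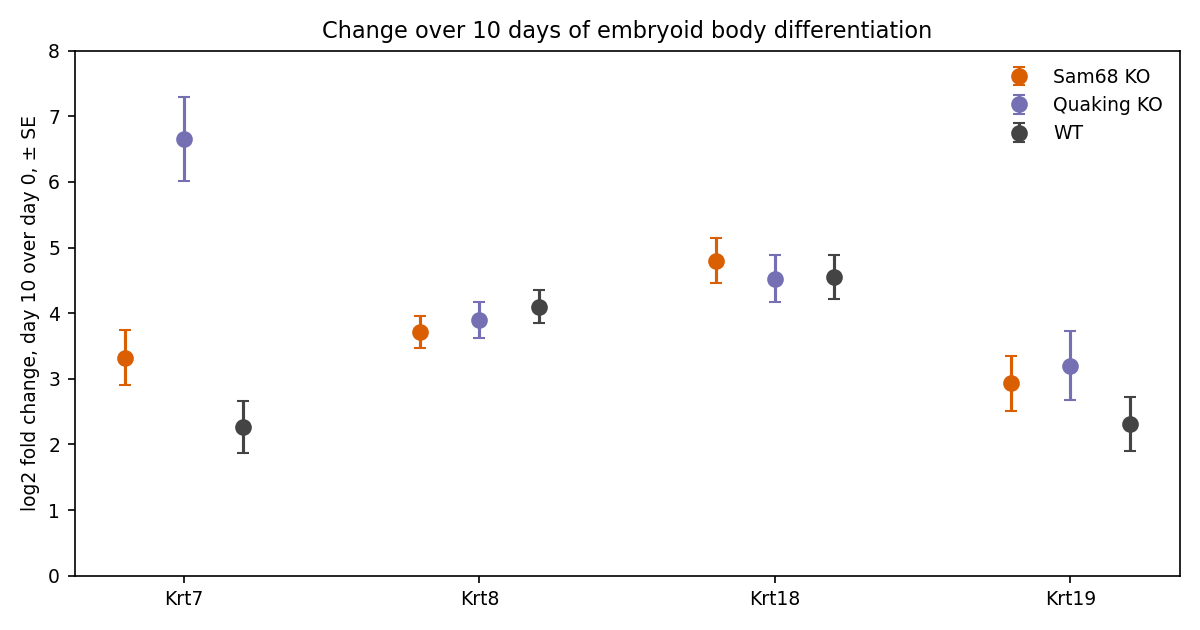
Points are log2 fold changes of day 10 over day 0 (vertical axis) from the fit of all 18 libraries, with SE, for 4 keratins along the horizontal axis in Sam68 KO (orange), Quaking KO (purple) and WT (grey). Krt8 and Krt18 changed by like amounts in the 3 lines, from 3.71 to 4.10 and from 4.52 to 4.80. Krt7 changed by 6.65 in Quaking KO, 3.32 in Sam68 KO and 2.27 in WT. Its value in Quaking KO rests on 3 counts summed over the day 0 libraries, each of them under the floor.

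Embryoid bodies without Quaking had fewer footprints of Krt8, Krt18 and Krt19 at day 10, and more of Krt7. Against WT, 4 of the 5 keratins were called (edgeR, adjusted p below 0.05), 3 of them lower and 1 higher, where 23.9% of the 13701 features tested were called, 12.8% lower and 11.1% higher (46.4% of the calls higher under TMM, 54.6% under RLE and 51.2% under upper quartile scaling). Krt8 had a log2 fold change of -1.85 (SE 0.23, edgeR adjusted p = 5.4e-06). Krt18 had one of -1.92 (SE 0.30, edgeR adjusted p = 0.000321). Both passed in all 13 alternative settings. Krt19 had a log2 fold change of -1.49 (SE 0.42, edgeR adjusted p = 0.0192), and lost its call without Quaking KO replicate 1 (0.0608) or 3 (0.0729), WT replicate 1 (0.0533) or the 3 dominated libraries (0.0606). Krt7 had a log2 fold change of 1.12 (SE 0.38, edgeR adjusted p = 0.0337), a call that was lost without any 1 of the 6 libraries compared (0.0508 to 0.107) and without the 3 dominated ones (0.0698). Krt17 was at or under the floor in both groups and is given no fold change. The median over the other 4 genes was -1.67, beside -0.03 over all features.

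Krt8, Krt18 and Krt19 also differed between the KO lines at day 10, a comparison made within pool MIX_3. All 3 were higher in Sam68 KO, where 23.7% of features were called, 13% higher and 10.6% lower (55.1% of the calls higher under TMM and 44.5% under RLE scaling). As Sam68 KO over Quaking KO, Krt8 had a log2 fold change of 1.75 (SE 0.23, edgeR adjusted p = 9.64e-06) and Krt18 of 2.06 (SE 0.31, edgeR adjusted p = 0.000174). Krt19, at 1.61 (SE 0.41, edgeR adjusted p = 0.0119), lost its call without Quaking KO replicate 3 (0.0512) or the 3 dominated libraries (0.0716). Krt7 was at -0.64 (SE 0.36, edgeR adjusted p = 0.22) and did not pass, although no Sam68 KO library reached the lowest Quaking KO library. Krt17 also passed, as lower (edgeR adjusted p = 0.0108), but on 0 counts in Sam68 KO and 6 in Quaking KO, under the floor, and it is not counted with the 3. It did not pass without Quaking KO replicate 3 (0.115) or Sam68 KO replicate 1 (0.164). This comparison and that of Quaking KO with WT share the Quaking KO day 10 libraries.

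At day 0, before differentiation, Krt8 and Krt18 were already lower in Quaking KO than in WT, in libraries of the same pool, MIX_1. These were 2 of the 5 keratins, where 0.365% of features were called lower (edgeR, adjusted p below 0.05) and 0 higher. In the fit of only these 2 groups 34 of 95 calls were higher, and by DESeq2 8 of 58 were. Krt8 had a log2 fold change of -1.65 (SE 0.27, edgeR adjusted p = 0.00633) and Krt18 of -1.90 (SE 0.34, edgeR adjusted p = 0.0229). Krt19 was at -2.38 (SE 0.52, edgeR adjusted p = 0.0926) and Krt7, on 3 counts in Quaking KO and 95 in WT, had an edgeR adjusted p of 0.0892. Neither passed. From summed counts WT exceeded Quaking KO in Krt7 by a ratio of 9.76 (counting interval 3.24 to 48.2). That interval leaves out the spread between libraries and does not stand in for the test, which Krt7 did not pass. Krt17 was at 0.10 (SE 0.22, edgeR adjusted p = 1), with overlapping libraries. The median of the 5 genes was -1.90, beside -0.09 over all features.

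Krt8 passed in 12 and Krt18 in 6 of 13 alternative settings at day 0. In the fit of only the 6 libraries compared, neither Krt8 (log2 fold change -1.54, edgeR adjusted p = 0.265) nor Krt18 (-1.82, edgeR adjusted p = 0.277) passed, and Krt18 also lost its call under RLE scaling (0.0525), under upper quartile scaling (0.0522), without the 3 dominated libraries (0.0878) and without Quaking KO replicate 1 (0.16), 2 (0.0752) or 3 (0.171). WT replicate 1 stood above the other WT day 0 libraries, at 2.12 times their mean for Krt8, 2.21 times for Krt18, 2.62 times for Krt19 and 2.48 times for Krt7, and 1.24 times for Krt17. Without it, Krt8 was at -1.21 (edgeR adjusted p = 0.00385) and Krt18 at -1.42 (edgeR adjusted p = 0.00546), both still called. Krt19 was at -1.78 (edgeR adjusted p = 0.108). Without WT replicate 2, Krt7 (0.0469) and Krt19 (0.0415) passed as well.

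Sam68 KO stem cells also exceeded Quaking KO stem cells in Krt8 and Krt18. Of the 5 keratins 2 were higher, where 2.55% of features were higher and 0.766% lower (3.31% called; 76.9% of the calls higher under TMM, 63% under RLE and 60.3% under upper quartile scaling). The log2 fold change was 1.94 for Krt8 (SE 0.27, edgeR adjusted p = 2e-04) and 1.78 for Krt18 (SE 0.34, edgeR adjusted p = 0.00855). Without Quaking KO replicate 1, Krt18 did not pass (0.0543). Krt19 was at 1.88 (SE 0.53, edgeR adjusted p = 0.0775) and Krt7, on 52 counts in Sam68 KO and 3 in Quaking KO, had an edgeR adjusted p of 0.0896. Krt17 was at 0.06 (SE 0.22, edgeR adjusted p = 0.953). The groups lie in different pools, MIX_2 and MIX_1.

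**Figure D3:**
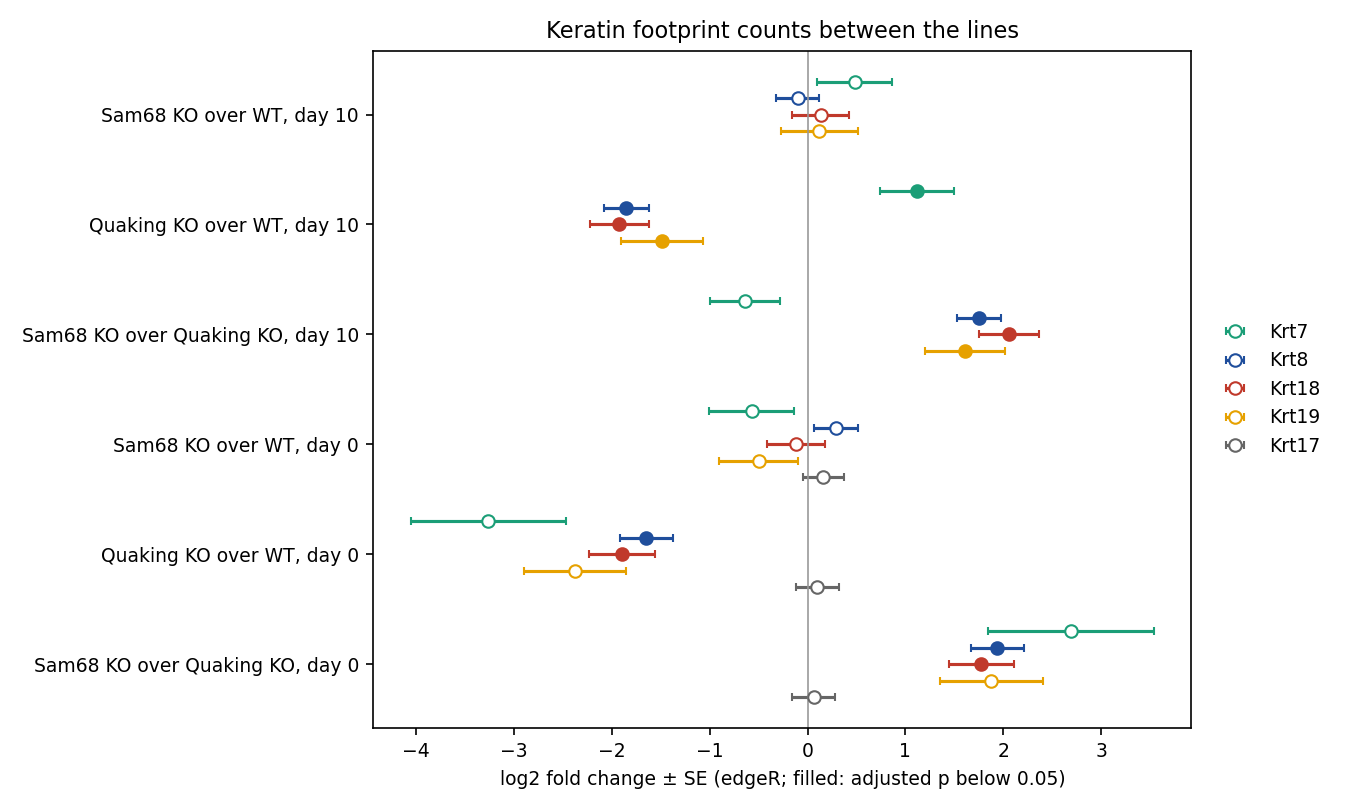
Points are log2 fold changes (horizontal axis, first-named line over the second) with SE for each keratin in the 6 comparisons between lines, filled where edgeR's adjusted p was below 0.05. Krt17 is left out at day 10, where all groups were at or under the floor. Krt7 points at day 0 that involve Quaking KO rest on 3 summed counts in that line, each library under the floor. The Sam68 KO over WT points lie between -0.57 and 0.48, while Krt8, Krt18 and Krt19 lie between -1.49 and -2.38 in Quaking KO over WT on both days.

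Loss of Sam68 was not accompanied by a called change in any of the 5 keratins. At day 10, 0 of 5 passed edgeR's test between Sam68 KO and WT (0.175% of all features did, 0.073% higher and 0.102% lower), and 0 did at day 0 (1.26% of features, 0.62% higher and 0.642% lower). By DESeq2 there were also 0 on either day, where 74 features passed at day 10 and 255 at day 0. At an unadjusted p below 0.05 in edgeR's test there were 0 on either day, and the number over all features was not counted. At day 10 the log2 fold changes were -0.10 for Krt8 (SE 0.22), 0.13 for Krt18 (SE 0.29), 0.12 for Krt19 (SE 0.40) and 0.48 for Krt7 (SE 0.38). For Krt7 at day 10, all Sam68 KO libraries lay above all WT libraries (20.1 to 28.7 against 14.1 to 18.7 CPM). The lowest WT value rests on 6 counts, and how many of all features lay apart in this way was not counted. Sam68 KO shares its day 10 pool with Quaking KO and not with WT, and the part of pool was not tested. At day 0 the log2 fold changes were 0.29 for Krt8 (SE 0.23), -0.12 for Krt18 (SE 0.30), -0.50 for Krt19 (SE 0.41), -0.57 for Krt7 (SE 0.44) and 0.16 for Krt17 (SE 0.21). Single libraries moved the day 0 values. Without WT replicate 1, Krt8 was at 0.73 and passed (edgeR adjusted p = 0.0495), Krt18 was at 0.36, Krt19 at 0.10 and Krt7 at -0.05. Sam68 KO replicate 1 stood at 3.81 times the mean of the other Sam68 KO day 0 libraries for Krt7, 1.97 times for Krt19 and 1.60 times for Krt18. Without it, Krt7 was at -1.45 (edgeR adjusted p = 0.087), Krt19 at -0.90 and Krt18 at -0.38. With any 1 of the 6 libraries left out, Krt7 ranged from -1.45 to -0.05, Krt19 from -0.90 to 0.10, Krt18 from -0.38 to 0.36 and Krt8 from 0.09 to 0.73. These values do not show that the lines are alike, and changes of several SE could have gone undetected. Between Quaking KO and WT at day 0, Krt19 at -2.38 (SE 0.52) did not pass.

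Whether the change over 10 days itself differed between lines was tested as an interaction. For Quaking KO minus WT, 1 of 5 keratins passed, where 8.88% of features did, 5.12% higher and 3.76% lower (edgeR, adjusted p below 0.05). That gene was Krt7, whose log2 change over time was greater by 4.39 in Quaking KO (SE 0.87, edgeR adjusted p = 0.00212). It passed in all 19 alternative settings, at 3.87 to 5.20, although the fitted size rests on 3 counts in Quaking KO at day 0. Every setting drew on Quaking KO day 0 libraries under the floor, and none set them at the floor. The range therefore does not bound the size. Against WT, Krt7 in Quaking KO was at 1.12 at day 10 and was not called at day 0 (edgeR adjusted p = 0.0892). Krt8 (-0.20, SE 0.36, edgeR adjusted p = 0.807), Krt18 (-0.03, SE 0.48, edgeR adjusted p = 0.999) and Krt19 (0.89, SE 0.67, edgeR adjusted p = 0.49) did not pass. For Sam68 KO minus WT 0 of 5 passed by edgeR, where 0.431% of features did, 0.131% higher and 0.299% lower. By DESeq2 0 of 5 passed, where 123 features did. At an unadjusted p below 0.05 in edgeR's test there were also 0, and the number over all features was not counted. In the Sam68 KO interaction Krt7 was at 1.05 (SE 0.58, edgeR adjusted p = 0.632). It was at 1.93 without Sam68 KO day 0 replicate 1 (edgeR adjusted p = 0.105), at 0.63 without Sam68 KO day 0 replicate 2 and at 0.54 without WT day 0 replicate 1.

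The mix of keratins within a library needs no scaling between libraries. Shares of counts are not corrected for gene length, so they are compared between libraries and not between genes. Krt7 made up 5.53%, 5.08% and 6.94% of the type II counts, Krt7 plus Krt8, in Sam68 KO, 24.3%, 27.4% and 21.7% in Quaking KO and 3.89%, 3.75% and 3.73% in WT libraries at day 10. All 3 Quaking KO libraries lay far above the others, and their lowest exact binomial bound, 18.3%, was above the highest bound of the others, 9.70%. These bounds cover the sampling of counts within a library and not the spread between libraries. Bounds also lay apart within 1 group, Sam68 KO at day 0 (10.1% to 20.3% in replicate 1, 1.96% to 6.85% in replicate 2). At day 0 the Krt7 share was 14.7%, 3.89% and 4.44% in Sam68 KO, 3.03%, 0% and 6.90% in Quaking KO and 13.8%, 10.7% and 13.3% in WT libraries. The 0% rests on 9 counts and an upper bound of 33.6%.

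The balance of the Krt8 and Krt18 pair was more even between lines. Krt8 made up 24.3 ± 2.10% of Krt8 plus Krt18 counts in Sam68 KO, 28.5 ± 3.81% in Quaking KO and 27.0 ± 1.81% in WT at day 10. At day 0 the share was 41.1 ± 6.92% in Sam68 KO, 36.4 ± 10.1% in Quaking KO and 34.1 ± 2.90% in WT (SD, n = 3). Lines overlapped on both days. It was lower at day 10 than at day 0 without overlap in Sam68 KO and WT, and the days overlapped in Quaking KO. Within the type I genes, Krt19 took 11.4 ± 0.98% of Krt18 plus Krt19 counts in Sam68 KO, 14.9 ± 3.87% in Quaking KO and 11.6 ± 1.40% in WT at day 10, against 31.6 ± 2.66%, 30.2 ± 10.7% and 37.3 ± 2.31% at day 0 in the same lines. In every line the Krt19 share was lower at day 10, with no overlap.

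Krt17 made up 19.02%, 32.5% and 30.01% of the counts of the 5 keratins in Sam68 KO, 55.9%, 55.3% and 55.8% in Quaking KO and 17.5%, 28.7% and 28.1% in WT libraries at day 0. Quaking KO was above both other lines in each library, with Krt17 at a like CPM in all of them. Krt8, Krt18 and Krt19 had lower CPM in Quaking KO, of which Krt8 and Krt18 were called. Krt7 was under the floor in each Quaking KO library. At day 10 no library exceeded 0.197%. Of 30 comparisons of 5 shares between lines, 11 had no overlap, each at an exact two-sided permutation p of 0.1, the smallest that 3 against 3 libraries can give (0.273 after Benjamini-Hochberg adjustment over the 30), so no share could pass a threshold of 0.05.

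**Figure D4:**
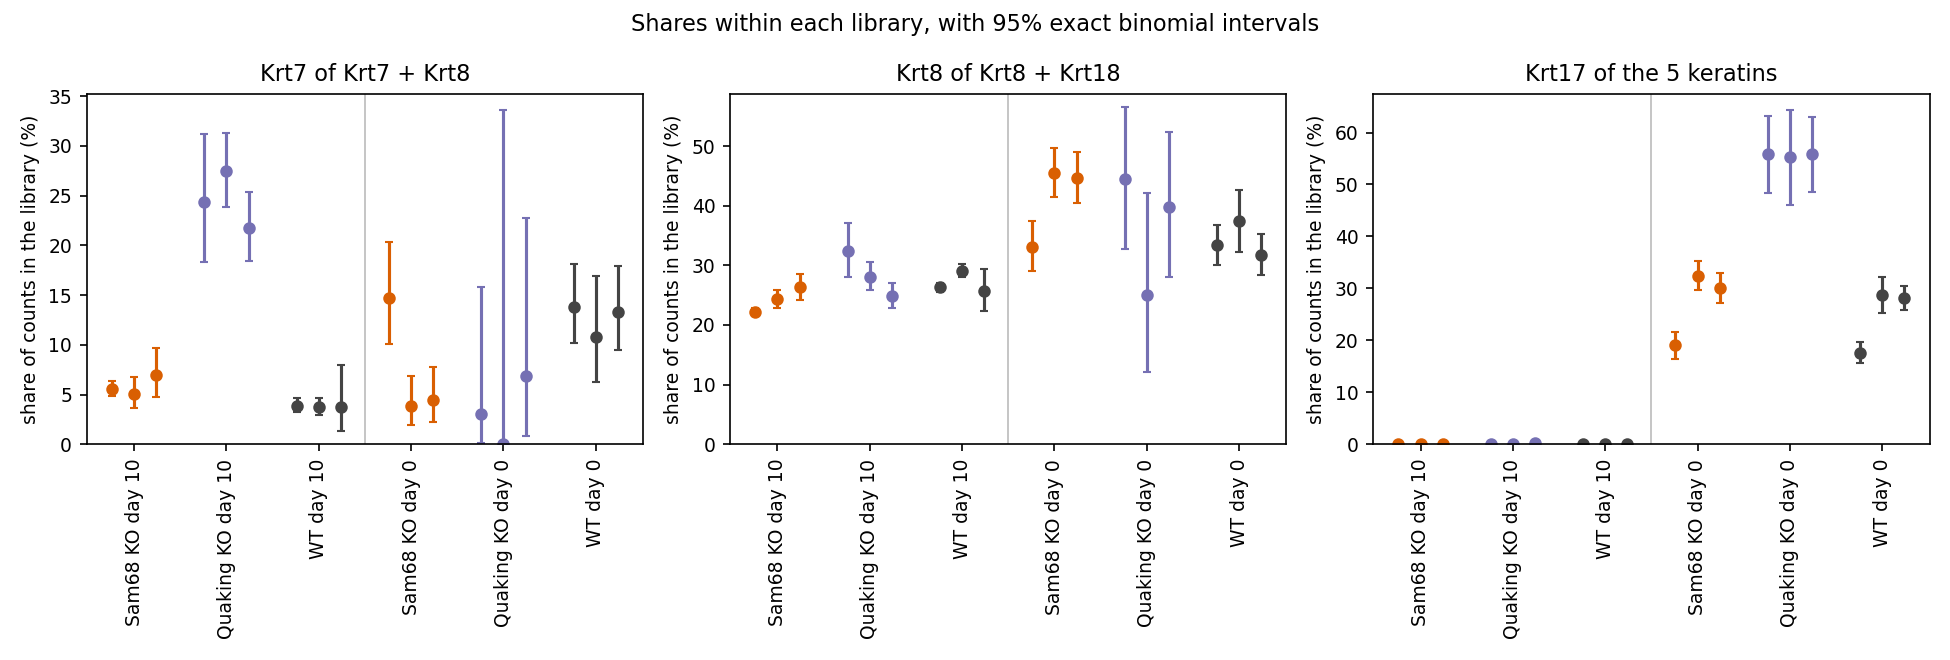
Each point is the share of counts (%) in 1 library with its 95% exact binomial interval, for Krt7 among Krt7 and Krt8 (left), Krt8 among Krt8 and Krt18 (middle) and Krt17 among the 5 keratins (right), in Sam68 KO (orange), Quaking KO (purple) and WT (grey), day 10 left of the line. Krt7 shares in Quaking KO at day 10, 21.7% to 27.4%, and Krt17 shares in Quaking KO at day 0, 55.3% to 55.9%, lie above those of the other lines on the same day.

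Within a day, the levels of Krt8, Krt18 and Krt19 ran together across the 9 libraries, which differ in line, pool and depth. Pearson's r of log2 CPM between Krt8 and Krt18 was 0.98 at day 10 and 0.90 at day 0, and between Krt18 and Krt19 0.96 and 0.95. Between Krt8 and Krt19 it was 0.945 at day 10 and 0.75 at day 0. By ranks (Spearman's rho) at day 10, Krt8 and Krt19 had 0.533, against 0.833 for Krt18 with either gene. Krt7 ran with Krt8 at day 0 (r = 0.86) and against it at day 10 (r = -0.81). On both days the 3 Quaking KO libraries lie apart from the other 6 in each of these genes, with Krt7 under the floor there at day 0. The values are descriptions with no test.

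Features with the most similar pattern were sought among the 13696 other features tested, by Pearson's r of log2 CPM over all 18 libraries, and the 2 closest per keratin had r between 0.97 and 0.996. The day of sampling sets much of such a value. The closest to Krt18 was ENSMUSG00000061859.16 (r = 0.996 over 18 libraries, 0.98 within day 10 and 0.97 within day 0). It averaged 139 ± 16.9 CPM in Sam68 KO, 58.0 ± 6.42 CPM in Quaking KO and 131 ± 22.4 CPM in WT at day 10. The closest to Krt7 was ENSMUSG00000040152.8 (r = 0.99, with 0.81 within day 10 and 0.97 within day 0). Like Krt7, it was highest in Quaking KO at day 10, with 192 ± 29.8 CPM in Sam68 KO, 578 ± 27.8 CPM in Quaking KO and 216 ± 15.5 CPM in WT. The closest to Krt17 were ENSMUSG00000032348.6 and ENSMUSG00000002870.8 (r = 0.99 each), whose r within day 0 was 0.64 and -0.06. The files pair these IDs with no gene name.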

How the data were processed

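Members and lists were chosen with earlier results of these data known. The authors deposited 1 file of raw counts per library, whole numbers per versioned Ensembl ID. Tools named in the submitters' processing notes are STAR 2.5.3a, Bowtie2 and bcl2fastq 2.17.1.14, with mm10 and GRCm38 as builds. The counting program, annotation release and use of strand were not given in the sources used here, so antisense reads cannot be told apart. No mRNA measurement was used.

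Counts were tested with edgeR 4.0.16 (R 4.3.3; TMM, default filter by group, robust quasi-likelihood fit, a mean per group over all 18 libraries, two-sided), with Benjamini-Hochberg adjustment over 13701 features and 11 comparisons each adjusted on its own. The test was checked on simulated counts. SE are the log2 fold change over the root of F. Intervals are exact, at 95%. Replicates differed by more than sampling noise in every pair (lowest chi-square over its degrees of freedom 4.81). Same-numbered libraries did not deviate together in most pairs (r above 0.1 in 6 of 45). The highest values were between Sam68 KO and WT at day 10, 0.442 for replicate 1 and 0.267 for replicate 3, with -0.094 for replicate 2. Replicate numbers were not taken as pairs, and a replicate block was run as an alternative.

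All 5 keratins are named, and the 2 features most alike in pattern were sought for each; at most 2 rising and 2 falling IDs are printed. The reference table held 49997 genes and 0 Ensembl IDs, so the lists of other keratins, filament attachment, junction, transcription factor and cell type marker genes, fixed by symbol, could not be run. No protein or transcript lengths were used here, so levels were not set per coding length. Alternatives were scaling by RLE or by upper quartile, DESeq2 1.42.0, all features without a low-count filter, only the groups compared, a replicate block, leaving out each library, and leaving out the 3 libraries dominated by few features.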

Additional observations from a re-analysis of the deposited data

Results flagged for a closer look

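The change of Krt7 over 10 days differed between lines by a test of the difference itself: its log2 change was greater by 4.39 in Quaking KO than in WT (SE 0.87, edgeR interaction term, adjusted p = 0.00212). All 3 Quaking KO libraries exceeded all WT libraries at day 10 and lay below all of them at day 0. There Quaking KO held 3 counts of Krt7 in all, each library under the floor. No setting put these libraries at the floor, so the size of the difference is not settled. The groups at day 10 lie in different pools, and the part of pool in this result was not tested. Groups of 3 libraries were too small to test for a library far from the others.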

How the results depend on the processing

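No called log2 fold change of a keratin changed direction under any setting; 21 of 576 values between lines, all of them not past the threshold, changed sign. Between Quaking KO and WT at day 0, where 2 keratins were called, 1 was called under RLE scaling, 1 under upper quartile scaling, 1 without the 3 dominated libraries, 0 in the fit of only the groups compared, and 1 to 4 when 1 library was left out. At day 10, where 4 were called, the count was 2 without the 3 dominated libraries and 2 to 3 when 1 library was left out (2 without Quaking KO replicate 1 or 3 or WT replicate 1). Between Sam68 KO and Quaking KO the count was 1 to 3 at day 0 and 2 to 4 at day 10, Krt17 included, when 1 library was left out, and between Sam68 KO and WT 0 to 1 at day 0. The cause was not tested. With a replicate block, 3 keratins were called between Quaking KO and WT and 3 between Sam68 KO and Quaking KO at day 0, in both cases Krt7 (adjusted p = 0.0255 and 0.0469) beside Krt8 and Krt18, and the block changed no other call. With no filter on low counts Krt7 passed in the same comparisons (0.000244 and 0.00981), and with DESeq2 Krt19 did (0.00224 and 0.015). Group means under RLE scaling and shares from summed counts moved by no more than 1 SD. Without the 3 dominated libraries, the lone Sam68 KO day 10 library is assumed to vary like the other groups. Over all features, calls moved by over 1.5 times between Quaking KO and WT at day 0 (50 as reported; 31 under RLE and 31 under upper quartile scaling, 91 without the dominated libraries, 95 with only the groups compared) and at day 10 (3279; 1887 with only the groups compared), between Sam68 KO and WT at day 0 (173; 268 with no filter, 297 with only the groups compared) and at day 10 (24; 95 with no filter, 74 by DESeq2, 11 with only the groups compared), and in the Sam68 KO minus WT interaction (59; 129 with no filter, 123 by DESeq2, 30 without the dominated libraries, 36 with only the groups compared). With 1 library left out they ranged over 21 to 48, 2393 to 3452, 81 to 217, 10 to 53 and 16 to 96 in the same order, and over 239 to 415 (454 as reported) between Sam68 KO and Quaking KO at day 0. Depth limits Krt7 in Quaking KO at day 0 and Krt17 at day 10.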
